A study of Mus musculus with 30 samples.

Results

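The genes described here are 33 genes of fatty acid uptake and oxidation in mouse skeletal muscle. They were chosen by symbol, and all 33 were among the 11249 genes of the deposited table. They were followed in 2 muscles of male mice 3 days after transection of the spinal cord at a high thoracic level (T3), transection at a low thoracic level (T9) or sham surgery. The gastrocnemius, a hind limb muscle, gave 4 libraries per group, and the triceps brachii, a forelimb muscle, gave 6 per group, each from polyA RNA of muscle tissue; by the numbers in the sample descriptions, read here as mouse numbers, 12 mice, 4 per surgery, gave both muscles. The sources used here do not give strain or age, and p-values measure the spread between these libraries. The series concerns muscle wasting and how it depends on the level of the lesion, and the comparisons below ask how the fat-burning genes changed in each muscle.

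Muscle takes fatty acids from circulating triglyceride, which lipoprotein lipase splits at the capillary wall, and from its own lipid droplets. The fatty acids are bound to coenzyme A and passed into mitochondria by the carnitine shuttle. There, β-oxidation removes acetyl-CoA in repeated rounds of dehydrogenation, hydration, dehydrogenation and thiolysis, and electron transfer flavoprotein passes the electrons on to the respiratory chain. PPARα and PPARδ are nuclear receptors that bind fatty acids and are known to switch on many of these genes in fasting and in endurance training. Slow and oxidative fibres carry more of the pathway than fast glycolytic ones.

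Levels are given in CPM (reads of a gene, scaled to 1000000 reads in the library), and differences in log2 CPM with their standard error (SE). A difference was called where limma's adjusted p, taken over all genes tested, was under 0.05. Libraries held 13293557 to 23398801 reads, except 88826845 in triceps T3 replicate 5. The 4 libraries with the lowest median over genes were replicates 3 and 4 of triceps sham, replicate 1 of triceps T9 and replicate 4 of gastrocnemius sham. The median gene was higher after injury, by 0.27 and 0.40 log2 units in gastrocnemius after T3 and T9 and by 0.23 and 0.18 in triceps. Counts are therefore also given with each library centred on its median. Triceps sham replicate 4 stood apart in macrophage genes, whose 8 measured markers summed to 979 CPM there, against 19.6 to 44.0 CPM in the other triceps sham libraries.

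Per kilobase of exon, Fabp3, the fatty acid carrier of muscle cytosol, was the most abundant of the 33 mRNAs in sham muscle, at 654 CPM per kb in gastrocnemius and 667 CPM per kb in triceps. The next in both muscles were Acot13 at 127 and 168, Etfa at 122.5 and 149, Acadl at 115 and 138 and Acaa2 at 105 and 122 CPM per kb, in gastrocnemius and in triceps sham mice. The lowest were Ppara, at 1.95 and 1.94 CPM per kb, and Cpt1b, at 1.16 and 0.990 CPM per kb. Cpt1b encodes the muscle form of carnitine palmitoyltransferase 1. Its value is uncertain because 81.4% of its exon bases also belong to another annotated gene on the same strand, Gm44502. The same holds for Etfb, which shares 53.0% of its exon bases with Gm45233, and for Fabp3, which has a processed copy in the table, Fabp3-ps1. That copy averaged 15.6 ± 8.35, 3.76 ± 0.979 and 19.7 ± 7.0 CPM in gastrocnemius of T3, T9 and sham mice and 83.4 ± 34.0, 33.1 ± 9.94 and 20.1 ± 6.27 CPM in triceps (SD, n = 4 and 6), the same order of groups as Fabp3 itself.

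After T3 transection most of the genes were higher in triceps. There 23 of 33 rose and 0 fell against sham, where 19% of all genes rose and 4.32% fell. The median of the 33 changes was 0.79 log2 units, and that of all genes 0.23. With median centring, 15 of 33 still rose, against 10.1% of all genes, and with label number 60 alone 17 rose (4 libraries per group). The triceps descriptions carry the number 57 or 60, whose meaning the labels do not give. The median T3 effect over members was 0.91 in the libraries numbered 57 (2 per group) and 0.69 in those numbered 60. In gastrocnemius after T3 the picture was mixed. There 10 members rose and 4 fell, against 27.1% and 6.65% of all genes, with a median of 0.30 beside 0.27 log2 units for all genes. With median centring 5 rose and 4 fell, against 14.6% and 14.5% of all genes.

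After T9 transection more members fell than rose in gastrocnemius, and most were not called. Against sham, 8 members fell and 1 rose, where 5.67% of all genes fell and 37.6% rose. The median member changed by -0.18 log2 units and the median gene by 0.40, with 20 members below 0 and 13 above. By limma's unadjusted p under 0.05, 10 members were lower and 6 higher, against 7.22% and 45.6% of all genes. With median centring 15 members fell and 1 rose, against 12.4% and 11% of all genes. Without sham replicate 2 or without sham replicate 3, 14 members were called in all, and with all libraries 9. In triceps after T9, limma called 0 of 33 members in either direction, and 1 gene of all 11249 (0.00889%). At an unadjusted p under 0.05, 14 members were higher and 2 lower, against 9.94% and 0.596% of all genes. With voom weights 0 members were called and with library weights 4, all higher. The median member was higher by 0.30 log2 units in triceps after T9, and the median gene by 0.18. In each muscle the T3 and T9 comparisons share the sham libraries.

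**Figure D1:**
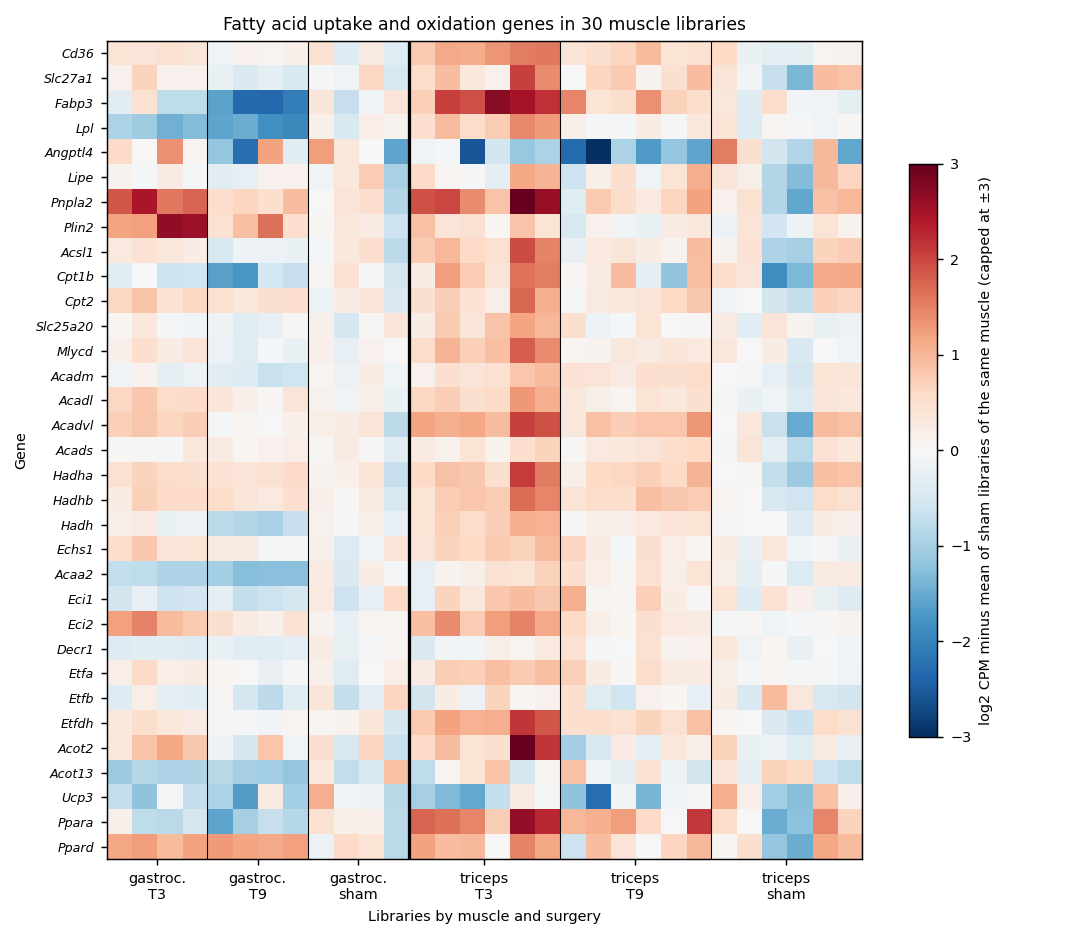
The map shows 33 genes (rows) in 30 libraries (columns) as log2 CPM minus the mean of the sham libraries of the same muscle, red for higher and blue for lower, capped at 3 either way. Gastrocnemius libraries stand left of the thick line. Triceps T3 columns are mostly red, with the deepest red for Pnpla2 and Acot2 in the fifth of them, and gastrocnemius T9 columns are blue for Fabp3, Lpl, Acaa2 and Acot13.

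The order of the 3 group means shows the same split. In triceps, T3 mice had the highest mean of the 3 groups for 27 of 33 members (81.8%), against 52.5% of all genes. In gastrocnemius, T3 mice had the highest mean for 20 of 33 members, against 25.6% of all genes, and T9 mice the lowest mean for 19 members (57.6%), against 10.1% of all genes. Sham mice had the lowest triceps mean for 27 members (81.8%), against 62.3% of all genes.

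Among the uptake genes, Fabp3 and Lpl fell in gastrocnemius after T9 and rose in triceps after T3. Fabp3 had 408.5, 707, 304 and 303 CPM in gastrocnemius of T3 mice, 169, 102, 100.3 and 123 CPM in T9 mice, and 666, 321, 489 and 677 CPM in sham mice. All 4 T9 libraries lay below all sham libraries, while T3 and sham overlapped. The log2 change was -2.09 ± 0.30 (SE) after T9 (adjusted p = 0.000256, limma) and -0.35 ± 0.30 after T3 (adjusted p = 0.368). In triceps the lowest, median and highest Fabp3 values were 876, 2327 and 3490 CPM in T3 mice, 708.5, 817 and 1486 CPM in T9 mice and 407, 501 and 772 CPM in sham mice. Every T3 library was above every sham library in triceps, and T9 and sham overlapped. Fabp3 rose by 2.01 ± 0.29 after T3 (adjusted p = 0.000131), and its change after T9 was 0.83 ± 0.29 log2 units, without a call.

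Lpl encodes lipoprotein lipase, which frees fatty acids from circulating triglyceride. Gastrocnemius held 321, 294, 227 and 250 CPM of Lpl in T3 mice, 204, 221, 172 and 161 CPM in T9 mice, and 691, 448, 707 and 661 CPM in sham mice. Both injured groups lay wholly below sham. Lpl fell by 1.19 ± 0.18 log2 units after T3 (adjusted p = 0.000296) and by 1.71 ± 0.18 after T9 (adjusted p = 2.81e-05). Triceps held 1074, 1375 and 2061 CPM (lowest, median, highest) in T3 mice, 729, 805 and 946 CPM in T9 mice and 577, 756 and 1013 CPM in sham mice. There the T3 group lay wholly above sham, with a rise of 0.91 ± 0.16 (adjusted p = 0.000707). Lpl was the only member called in opposite directions in the 2 muscles after T3, and these 3 calls held when any 1 library was left out.

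Cd36, the membrane translocase for long-chain fatty acids, rose in triceps after T3 by 1.25 ± 0.17 (adjusted p = 8.59e-05), where it had 370, 503 and 641 CPM in T3 mice and 174, 206 and 324 CPM in sham mice (lowest, median, highest). The T3 and sham libraries of triceps did not overlap. In gastrocnemius the change after T3 was 0.40 ± 0.18 (adjusted p = 0.0964). Slc27a1, a fatty acid transport protein with acyl-CoA synthetase activity, rose in triceps after T3 by 0.90 ± 0.27 (adjusted p = 0.0231), a call lost without 4 of 18 libraries and with median centring (0.67, adjusted p = 0.0529). Angptl4, a secreted inhibitor of lipoprotein lipase, was called in none of the 6 comparisons within muscles by limma, and its triceps changes were -0.90 ± 0.53 after T3 and -1.80 ± 0.53 after T9 (adjusted p = 0.219 and 0.257). Its values in gastrocnemius ran from 7.46 to 19.6 CPM in T3 mice, from 1.55 to 17.6 CPM in T9 mice and from 2.5 to 18 CPM in sham mice, so the groups overlapped widely.

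Of the 33 genes, the 2 lipid droplet genes Pnpla2 and Plin2 rose most in gastrocnemius after T3. Pnpla2 encodes adipose triglyceride lipase, which starts the breakdown of stored triglyceride, and had 719, 1087, 595 and 672 CPM in T3 mice, 289, 313, 282 and 375 CPM in T9 mice and 197, 261, 284 and 108 CPM in sham mice. The T3 libraries stood above all others of that muscle. Pnpla2 rose by 1.91 ± 0.27 in gastrocnemius after T3 (adjusted p = 0.000215) and by 2.0 ± 0.31 in triceps (adjusted p = 0.000277). The triceps values were 262, 560 and 1311 CPM in T3 mice and 48.9, 178 and 287 CPM in sham mice (lowest, median, highest), with an overlap of the groups.

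Plin2 coats lipid droplets. It had 63.4, 65.4, 176 and 167 CPM in gastrocnemius of T3 mice, 38.0, 51.5, 86.6 and 39.1 CPM in T9 mice, and 28.6, 34.9, 32.9 and 17.9 CPM in sham mice. Both injured groups lay above sham, and the T3 libraries fell into 2 pairs far apart. The rise after T3 was 1.92 ± 0.37 (adjusted p = 0.00188), and the change after T9 was 0.87 ± 0.37 (adjusted p = 0.0693). In triceps Plin2 rose by 0.51 ± 0.17 after T3 (adjusted p = 0.0373), a call lost without 8 of 18 libraries and with median centring (0.27, adjusted p = 0.131). Lipe, hormone-sensitive lipase, was called in none of the 6 comparisons within muscles.

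Of the genes that activate fatty acids and carry them into mitochondria, 4 of 5 rose in triceps after T3. Acsl1, the main long-chain acyl-CoA synthetase of muscle, rose by 1.04 ± 0.24 (adjusted p = 0.00519). Mlycd, malonyl-CoA decarboxylase, which removes the inhibitor of carnitine palmitoyltransferase 1, rose by 1.07 ± 0.17 (adjusted p = 0.000283). Mlycd had 161, 214 and 386 CPM in T3 mice and 80.2, 110 and 139 CPM in sham mice (lowest, median, highest), without overlap. Cpt2, the inner-membrane transferase, rose by 0.77 ± 0.16 in triceps (adjusted p = 0.00291) and by 0.64 ± 0.17 in gastrocnemius after T3 (adjusted p = 0.0126). Slc25a20, the carnitine-acylcarnitine carrier, rose by 0.74 ± 0.18 in triceps (adjusted p = 0.00739), with 0.50 and adjusted p = 0.161 after median centring.

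Cpt1b was the gene among them without a call in triceps after T3. In gastrocnemius it had 3.01, 3.80, 2.46 and 2.49 CPM in T3 mice, 1.21, 1.12, 2.64 and 2.34 CPM in T9 mice and 4.05, 5.23, 3.69 and 2.69 CPM in sham mice. The T9 libraries lay below all sham libraries, and Cpt1b fell by 1.15 ± 0.31 after T9 (adjusted p = 0.0104). In triceps its values after T3 were 2.99, 5.23 and 7.99 CPM, against 0.672, 3.52 and 5.74 CPM in sham mice (lowest, median, highest). Its change of 0.97 ± 0.47 was not called (adjusted p = 0.138), though the estimate was above those of Cpt2 and Slc25a20, which were called.

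The acyl-CoA dehydrogenases take the first step of each round, each on its own chain length. In triceps after T3, Acadvl (very long chains) rose by 1.39 ± 0.25 (adjusted p = 0.000800), Acadl (long chains) by 0.79 ± 0.12 (adjusted p = 0.000164) and Acadm (medium chains) by 0.54 ± 0.12 (adjusted p = 0.00389). Acads (short chains) was higher by 0.35 ± 0.15 without a call (adjusted p = 0.107). In gastrocnemius after T3, Acadl rose by 0.64 ± 0.14 (adjusted p = 0.00317) and Acadvl by 0.73 ± 0.20 (adjusted p = 0.0142). Acadm instead fell in gastrocnemius after T9, by 0.49 ± 0.14 (adjusted p = 0.0165). It had 228.5, 218, 180.5 and 189 CPM there, against 303, 251, 335 and 259 CPM in sham mice, without overlap. That call was lost without T9 replicate 3 or T9 replicate 4. Acadvl shares 42.9% of its exon bases with Dvl2 on the opposite strand, and the sources used here do not give whether counting used the strand.

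Hadha and Hadhb encode the α and β subunits of the mitochondrial trifunctional protein. They lie head to head on chromosome 5 (GRCm38), Hadha at 30118304 to 30155162 on the minus strand and Hadhb at 30155248 to 30184593 on the plus strand. The 85 bases between them, chr5:30155163-30155247, are shown because both genes start at its ends and their changes were close in each comparison. The sequence is RefSeq's (GRCm38.p6), on the plus strand, and capitals mark the 2 copies of GGGCGG, a letter string known as a GC box.
Hadha and Hadhb: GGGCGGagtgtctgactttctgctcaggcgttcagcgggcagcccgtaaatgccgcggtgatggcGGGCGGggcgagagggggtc
On either strand GGGCGG was found in 35.7% of the 32851 mouse promoter windows of 300 bases (250 before to 50 after a gene's start). The 27 members with a window have 31 windows. GGGCGG was found in 21 of these (67.7%), which belong to 20 members. The 32851 windows were not limited to genes measured here, and the share among measured genes was not computed.

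Hadha had 376 to 1123 CPM in triceps of T3 mice and 124 to 496 CPM in sham mice, and Hadhb 289 to 696 CPM in T3 mice and 144 to 320 CPM in sham mice. The groups overlapped for both. In triceps after T3 the rises were 1.08 ± 0.22 for Hadha (adjusted p = 0.00209) and 0.99 ± 0.16 for Hadhb (adjusted p = 0.000303). In gastrocnemius they were 0.54 ± 0.19 and 0.52 ± 0.17 after T3 (adjusted p = 0.0423 and 0.0290), and 0.46 ± 0.19 and 0.42 ± 0.17 without a call after T9 (adjusted p = 0.0629 and 0.0548), in the same order of genes. The gastrocnemius calls did not hold with median centring (0.26 and 0.25, adjusted p = 0.205 and 0.184), and were lost without 9 and without 3 of 12 libraries.

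The later enzymes of the cycle divided. Echs1, the short-chain hydratase, rose after T3 in triceps by 0.68 ± 0.14 (adjusted p = 0.00229) and in gastrocnemius by 0.54 ± 0.17 (adjusted p = 0.0273), and neither call held with median centring (adjusted p = 0.133 and 0.386). Hadh, the short-chain 3-hydroxyacyl-CoA dehydrogenase, had 144, 152.5, 111 and 115 CPM in gastrocnemius of T3 mice, 73.2, 69.2, 65.4 and 79.8 CPM in T9 mice and 141, 122, 146 and 107 CPM in sham mice. The T9 libraries were apart from both other groups, and Hadh fell by 0.84 ± 0.15 after T9 (adjusted p = 0.00115). In triceps Hadh rose after T3, by 0.75 ± 0.11 (adjusted p = 0.000101), with 175 to 275 CPM in T3 mice and 101 to 153 CPM in sham mice.

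Acaa2, a mitochondrial thiolase, fell in gastrocnemius in both injured groups. It had 93.6, 92.1, 82.4 and 82.4 CPM in T3 mice, 77.1, 64.4, 65.7 and 65.5 CPM in T9 mice and 184.5, 115, 182 and 153.5 CPM in sham mice. The 3 groups did not overlap. The falls were 0.84 ± 0.15 after T3 (adjusted p = 0.00142) and 1.20 ± 0.15 after T9 (adjusted p = 0.000137). In triceps Acaa2 had 153, 224 and 292 CPM in T3 mice, 186, 225 and 255 CPM in T9 mice and 138, 191 and 219 CPM in sham mice (lowest, median, highest), and neither difference was called (0.27 ± 0.15 after T3, adjusted p = 0.191).

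Unsaturated fatty acids need extra enzymes. Eci2, an enoyl-CoA isomerase of mitochondria and peroxisomes, rose in both muscles after T3, by 1.12 ± 0.16 in gastrocnemius (adjusted p = 0.000278) and by 1.16 ± 0.13 in triceps (adjusted p = 1.81e-05). It had 116, 139, 95.5 and 85.3 CPM in gastrocnemius of T3 mice, against 53.1, 41.3, 52.0 and 52.0 CPM in sham mice. In triceps it had 88.8, 121 and 148 CPM, against 48.4, 52.7 and 56.5 CPM in sham mice (lowest, median, highest). Neither muscle showed an overlap. Eci1, the mitochondrial isomerase, was called in none of the 6 comparisons. Decr1, 2,4-dienoyl-CoA reductase, fell in gastrocnemius after T3 by 0.36 ± 0.12 (adjusted p = 0.0374), a call lost without 8 of 12 libraries.

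Of the 3 electron transfer genes, Etfdh and Etfa rose in triceps after T3. Etfdh, the ubiquinone oxidoreductase that takes the electrons of β-oxidation, had 188, 241 and 476 CPM in T3 mice and 69.4, 111 and 159 CPM in sham mice (lowest, median, highest), without overlap. It rose by 1.36 ± 0.16 (adjusted p = 3.03e-05). Etfa rose by 0.72 ± 0.14 (adjusted p = 0.00116), with 0.48 and adjusted p = 0.0837 after median centring, and the change of Etfb was 0.06 ± 0.26 (adjusted p = 0.880). In gastrocnemius none of the 3 was called against sham.

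Acot2, a mitochondrial thioesterase that releases free fatty acid from acyl-CoA, rose in triceps after T3 by 1.46 ± 0.41 (adjusted p = 0.0167). Its T3 values were 18.4, 23.7, 16.5, 17.4, 231 and 55.4 CPM, against 9.63, 11.1 and 20.3 CPM in sham mice (lowest, median, highest). The 2 high libraries are replicates 5 and 6, the T3 libraries with label number 57. Within label 57 the difference was 3.17 (2 libraries per group) and within label 60 it was 0.60 (4 per group, adjusted p = 0.154), so the call was lost within label 60. It was also lost with median centring (adjusted p = 0.0510).

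Acot13, another thioesterase, fell in gastrocnemius. It had 40.4, 47.1, 45.2 and 45.6 CPM in T3 mice, 48.3, 42.7, 41.4 and 38.6 CPM in T9 mice and 107, 51.8, 61.5 and 158 CPM in sham mice. Both injured groups were narrow and lay below all 4 sham libraries, which were spread. The falls were 0.95 ± 0.27 after T3 (adjusted p = 0.0167), lost without sham replicate 1 (adjusted p = 0.0553), and 1.01 ± 0.27 after T9 (adjusted p = 0.0106). With the library median as a covariate the T9 difference was 0.14 ± 0.33 (adjusted p = 0.815). Ucp3, the muscle uncoupling protein, was lower in the means of both injured groups of both muscles without a call. Its gastrocnemius values ran from 96.9 to 215 CPM in T3 mice, from 70.2 to 269 CPM in T9 mice and from 126 to 477 CPM in sham mice.

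The receptors differed from each other. Ppara had 7.93, 4.20, 4.04 and 4.98 CPM in gastrocnemius of T3 mice, 2.37, 3.58, 4.42 and 3.94 CPM in T9 mice and 9.75, 8.07, 7.90 and 4.14 CPM in sham mice. The T9 and sham groups overlapped only through sham replicate 4, and the T3 group overlapped more of the sham libraries. Ppara fell by 1.03 ± 0.30 after T9 (adjusted p = 0.0152), a call lost without sham replicate 1 (adjusted p = 0.0517), and its change after T3 was -0.48 ± 0.30 (adjusted p = 0.219). In triceps Ppara had 9.76, 19 and 36.7 CPM in T3 mice, 5.79, 12.0 and 25.7 CPM in T9 mice and 2.08, 7.29 and 16.2 CPM in sham mice (lowest, median, highest). It rose there by 1.75 ± 0.40 after T3 (adjusted p = 0.00435), with overlap of the groups.

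Ppard instead rose in gastrocnemius at both lesion levels. It had 61.9, 67.0, 53.5 and 64.8 CPM in T3 mice, 67.4, 63.4, 61.2 and 65.9 CPM in T9 mice and 24.5, 41.9, 37.0 and 15.9 CPM in sham mice, with the injured groups wholly above sham. The rises were 1.14 ± 0.24 after T3 (adjusted p = 0.00304) and 1.21 ± 0.24 after T9 (adjusted p = 0.00216). In triceps the rise after T3, 0.96 ± 0.34 (adjusted p = 0.0490), was lost without 12 of 18 libraries and with median centring (adjusted p = 0.0646).

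PPARs bind as partners of RXR to a direct repeat of AGGTCA with a base between the copies. No promoter window of the 27 members held that repeat exactly, on either strand, and 0.0396% of all windows did. A single AGGTCA lay in 6 of the 31 member windows (19.4%) and in 16.3% of all windows. The 6 belong to Acadm, Acadvl, Cd36, Echs1, Plin2 and Ucp3. A match is only a run of letters, and its absence from a window says nothing about the factor. The stretches are shown for these letters. In triceps after T3, 5 of the 6 genes rose, beside 23 of all 33 members, and 2 of the 5, Plin2 and Echs1, lost the call with median centring (adjusted p = 0.131 and 0.133). The stretches are RefSeq sequence (GRCm38.p6) in the direction of the gene, with up to 20 bases on either side and the half-site or its complement in capitals. The Cd36 stretch lies inside the gene as annotated (17781690 to 17888801 on chromosome 5, minus strand), not at its outer start.
Acadm, chr3:153944867-153944893, minus strand: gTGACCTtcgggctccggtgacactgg
Acadvl, chr11:70015490-70015535, minus strand: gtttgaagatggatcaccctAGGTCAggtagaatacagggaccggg
Cd36, chr5:17836099-17836144, minus strand: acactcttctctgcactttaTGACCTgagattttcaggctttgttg
Echs1, chr7:140116479-140116524, minus strand: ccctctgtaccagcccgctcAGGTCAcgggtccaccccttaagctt
Plin2, chr4:86670252-86670297, minus strand: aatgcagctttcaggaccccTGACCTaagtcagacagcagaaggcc
Ucp3, chr7:100472822-100472867, plus strand: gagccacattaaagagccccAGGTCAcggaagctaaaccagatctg
Ucp3, chr7:100472927-100472972, plus strand: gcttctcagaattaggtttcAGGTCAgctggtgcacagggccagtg

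**Figure D2:**
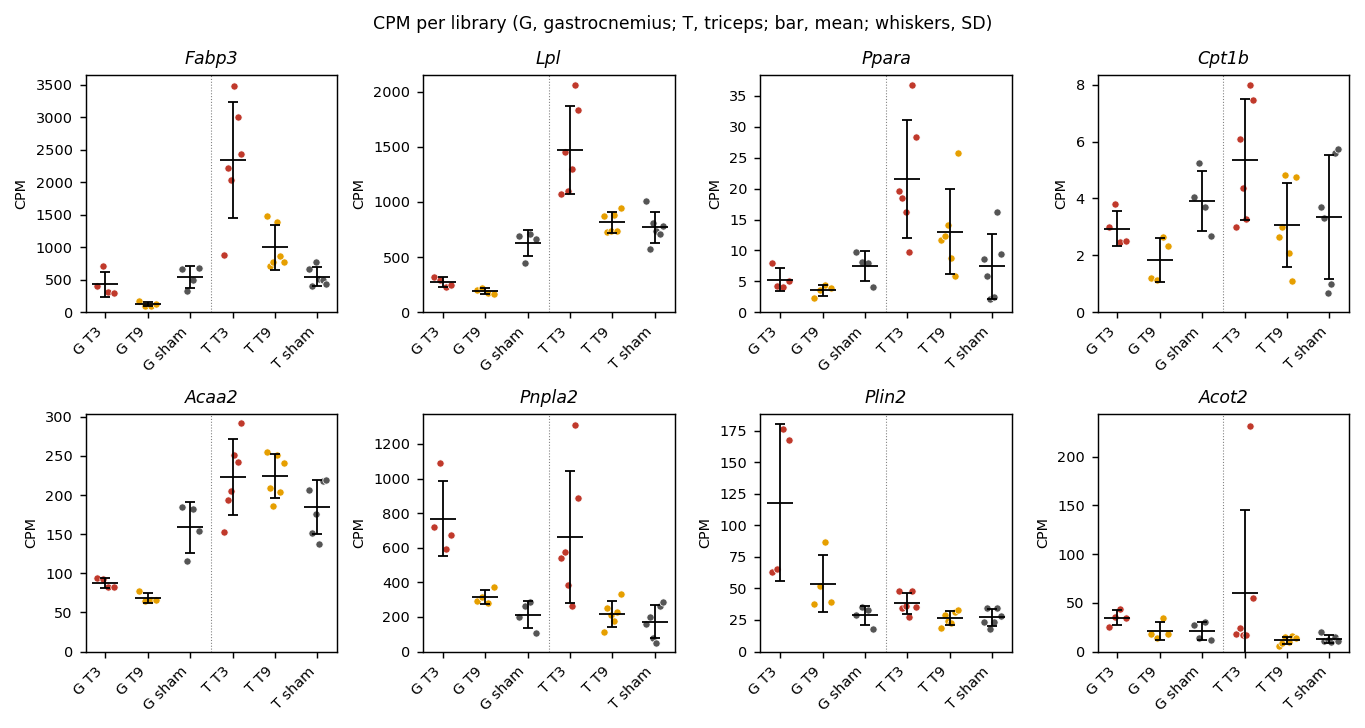
Each panel shows 1 gene, with CPM on a linear axis from 0 and a point for every library of the 6 groups. Black bars are means and whiskers SDs (n = 4 in gastrocnemius and 6 in triceps), and the lower whisker of Acot2 in triceps T3 is cut at 0. Fabp3 and Lpl are highest in triceps T3 and lowest in gastrocnemius T9, while Pnpla2 is high after T3 in both muscles.

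Between the 2 lesion levels, the members that passed the test were higher after T3, and most members did not pass. In gastrocnemius 4 of 33 were higher in T3 than in T9 mice and 0 lower, where 0.729% of all genes were higher. These were Fabp3 (1.74 ± 0.30, adjusted p = 0.0170), Hadh (0.85 ± 0.15, adjusted p = 0.0187), Eci2 (0.79 ± 0.16, adjusted p = 0.0308) and Pnpla2 (1.26 ± 0.27, adjusted p = 0.0356). The median member differed by 0.38 log2 units and the median gene by -0.11. The calls were few enough that leaving out 1 library gave between 0 and 8, with 0 without T3 replicate 1, T9 replicate 3 or T9 replicate 4 and 8 without sham replicate 4.

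In triceps 11 members were higher in T3 than in T9 mice and 0 lower, where 4.95% of all genes were higher. They were Cd36, Fabp3, Lpl, Pnpla2, Slc25a20, Mlycd, Acadl, Hadh, Eci2, Etfdh and Acot2. Eci2 had the smallest adjusted p (0.85 ± 0.13, adjusted p = 0.000827), and Pnpla2 and Acot2 the largest differences (1.48 ± 0.31 and 1.63 ± 0.41, adjusted p = 0.00674 and 0.0189). The median member differed by 0.51 log2 units and the median gene by 0.05. With the 4 libraries per group of label number 60 alone, 0 members and 0.311% of all genes were called higher, with a median of 0.40 over the members. 

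The difference between the muscles was tested directly, as the effect in gastrocnemius minus the effect in triceps, in the 12 mice read from the descriptions. The labels do not state that these numbers are animals. After T3, 5 members had a lower effect in gastrocnemius and 0 a higher one, where 1.10% of all genes had a lower one. After T9, 10 members had a lower effect (6 without the mouse as a block) and 0 a higher one, where 3.19% of all genes had a lower one. In both cases the estimate was below 0 for 28 of 33 members. The median over members was -0.42 after T3 and -0.46 after T9, and over all genes -0.02 and 0.15. The 2 tests share the sham libraries.

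Ppara, Fabp3, Lpl, Acaa2 and Etfdh were called at both lesion levels. For Ppara the differences were -2.41 ± 0.37 after T3 (adjusted p = 0.00714) and -2.53 ± 0.37 after T9 (adjusted p = 0.00210), and for Lpl -1.86 ± 0.20 (adjusted p = 0.000767) and -1.78 ± 0.20 (adjusted p = 0.000386). Neither gene lost a call without any 1 library. For Fabp3 they were -2.11 ± 0.43 after T3 (adjusted p = 0.0315) and -2.94 ± 0.43 after T9 (adjusted p = 0.00202), and for Acaa2 -1.09 ± 0.20 (adjusted p = 0.0201) and -1.63 ± 0.20 (adjusted p = 0.000751). For Etfdh they were -0.93 ± 0.18 (adjusted p = 0.0242) and -0.79 ± 0.18 (adjusted p = 0.0190). The T3 calls of Fabp3, Acaa2 and Etfdh were lost without 14, 8 and 6 of the 24 libraries, and the T9 call of Etfdh without 6. Between 2 and 6 members were called after T3 with 1 library left out, with 2 without T3 replicate 3 or 4 of either muscle and 3 without T3 replicate 2 or sham replicate 4. Without the mouse block, the same 24 libraries called Lpl, Ppara and Acaa2 after T3, and lost Fabp3 (adjusted p = 0.0611) and, at both lesion levels, Etfdh (adjusted p = 0.0792 after T3 and 0.0644 after T9). With median centring the T3 calls of Fabp3 and Acaa2 were lost (adjusted p = 0.0665 and 0.0700). All 30 libraries without the block called Lpl, Ppara, Etfdh, Hadh, Fabp3 and Acaa2 after T3, and Lpl, Ppara, Hadh, Fabp3, Acaa2 and Acadm after T9.

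After T9 alone the call was also reached by Cpt1b (-1.96 ± 0.47, adjusted p = 0.0263), Acadvl (-1.10 ± 0.23, adjusted p = 0.0121), Hadh (-1.09 ± 0.17, adjusted p = 0.00268), Acadm (-1.08 ± 0.18, adjusted p = 0.00391) and Slc27a1 (-1.19 ± 0.33, adjusted p = 0.0484). Slc27a1 lost it without 20 of the 24 libraries and Cpt1b without 8. Acadvl, Cpt1b and Slc27a1 all lost it without the mouse block (adjusted p = 0.129, 0.0779 and 0.115) and in all 30 libraries (adjusted p = 0.213, 0.271 and 0.201). Pnpla2 and Eci2, which rose after T3 in both muscles, had T3 differences of -0.10 ± 0.34 and -0.01 ± 0.17 (adjusted p = 0.946 and 0.993). Plin2 and Angptl4 were the members with the largest positive estimates after T3, 1.36 ± 0.46 and 1.48 ± 0.51, without a call (adjusted p = 0.207 and 0.219).

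**Figure D3:**
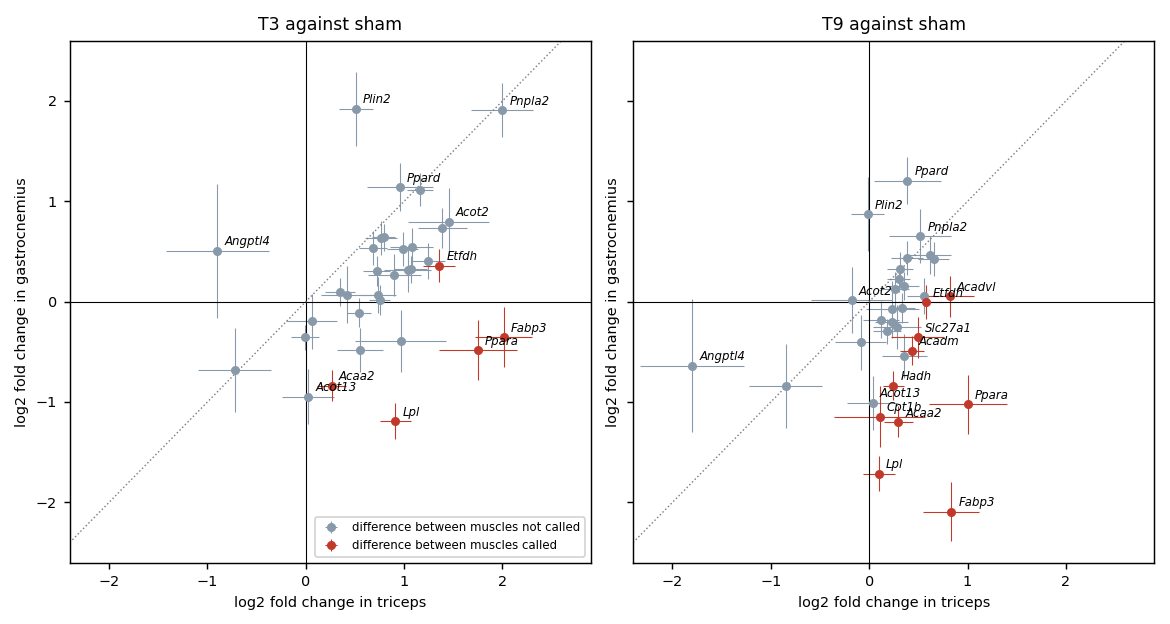
Log2 fold change against sham in triceps (horizontal) and gastrocnemius (vertical), with standard errors, for T3 (left) and T9 (right). The dotted line marks equal change, and red points are genes whose difference between muscles was called. Fabp3, Ppara and Lpl lie to the right of 0 and below 0 in both panels.

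**Figure D4:**
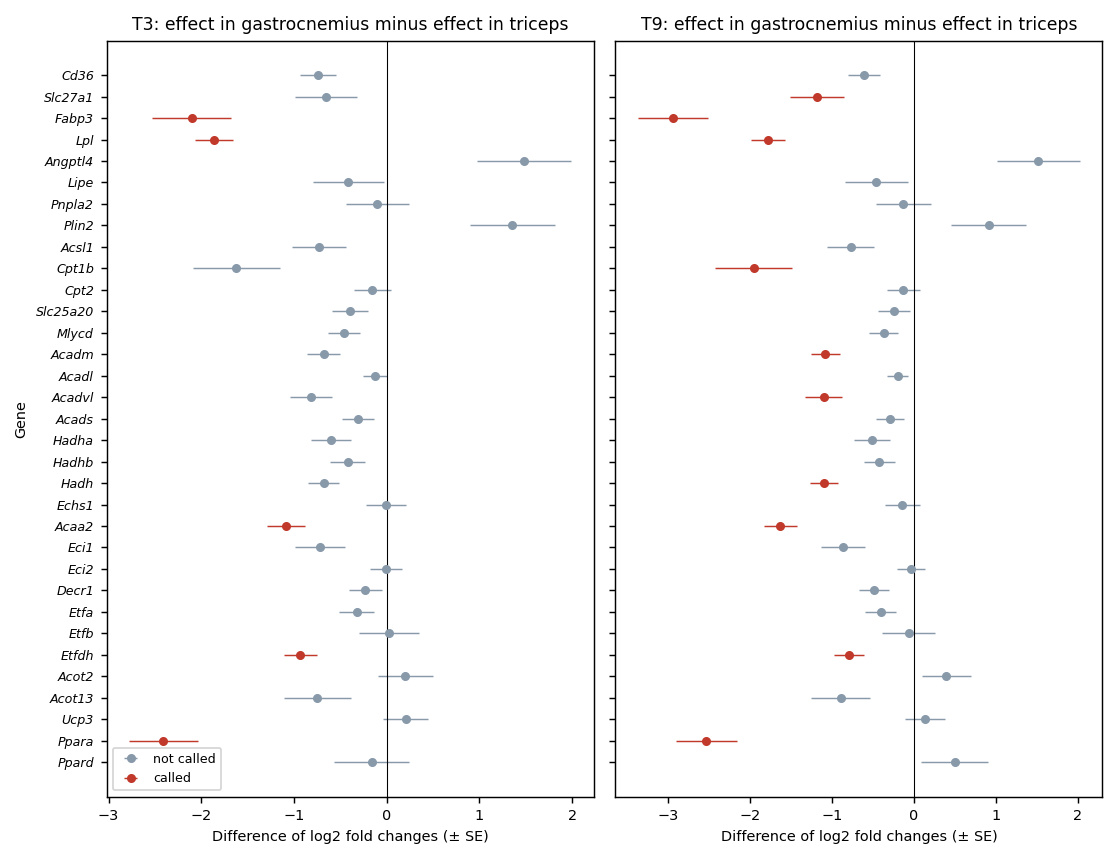
Effect in gastrocnemius minus effect in triceps for each of the 33 genes, in log2 units with standard errors, after T3 (left) and T9 (right), with called genes in red. Of the 33 points, 28 lie left of 0 in each panel.

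The levels themselves were compared within mice as well. In T9 mice 6 members were higher and 16 lower in gastrocnemius than in triceps, where 41.9% of all genes were higher and 11.1% lower. In T3 mice 5 were higher and 15 lower, against 20.5% and 9.95% of all genes. In sham mice 13 were higher and 3 lower, against 26.8% and 12.0% of all genes, but 0 were called without the mouse of sham replicate 3, whose libraries deviated in opposite directions (r = -0.638), without its gastrocnemius or triceps library, or without the mouse term. The T3 count of 20 fell to 8 or 10 without T3 replicate 3 or 4 of either muscle. Fabp3 was lower in gastrocnemius than in triceps by 3.09 ± 0.30 log2 units in T9 mice (adjusted p = 3.23e-05) and by 2.26 ± 0.30 in T3 mice (adjusted p = 0.000637). In sham mice its difference was -0.15 ± 0.30 (adjusted p = 0.700). Lpl was lower by 2.09 ± 0.14, by 2.18 ± 0.14 and, without a call, by 0.31 ± 0.14 in T9, T3 and sham mice (adjusted p = 2.84e-06, 3.61e-06 and 0.0923).

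The summed markers of slow, oxidative fibres also differed between the groups of gastrocnemius. Their 12 listed markers, which include the slow myosin chain Myh7 and the oxidative chain Myh2, summed to 1549 to 2178 CPM in gastrocnemius of T3 mice, 1104 to 1745 CPM in T9 mice and 2428 to 5594 CPM in sham mice. Both injured groups lay below sham. In triceps the sums were 2555 to 4649 CPM in T3 mice, 2577 to 6631 CPM in T9 mice and 1493 to 6079 CPM in sham mice, where the 2 high sham libraries, at 5612 and 6079 CPM, carry label number 57. Of the 12, 4 fell and 1 rose in gastrocnemius after T3, 5 fell and 1 rose after T9, and 2 rose and 0 fell in triceps after T3. Of all genes, 27.1%, 37.6% and 19% rose in these comparisons and 6.65%, 5.67% and 4.32% fell. The 12 fast-fibre markers summed to 92810 to 114500 CPM in triceps of T3 mice and 113800 to 152300 CPM in sham mice, and 4 of them fell and 0 rose. In gastrocnemius 4 of the 12 also fell, with 1 rise after T3 and 0 after T9. In muscle tissue, fewer fibres of a type and less RNA per fibre cannot be told apart, and the part of fibre type in the members' changes was not tested.

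**Figure D5:**
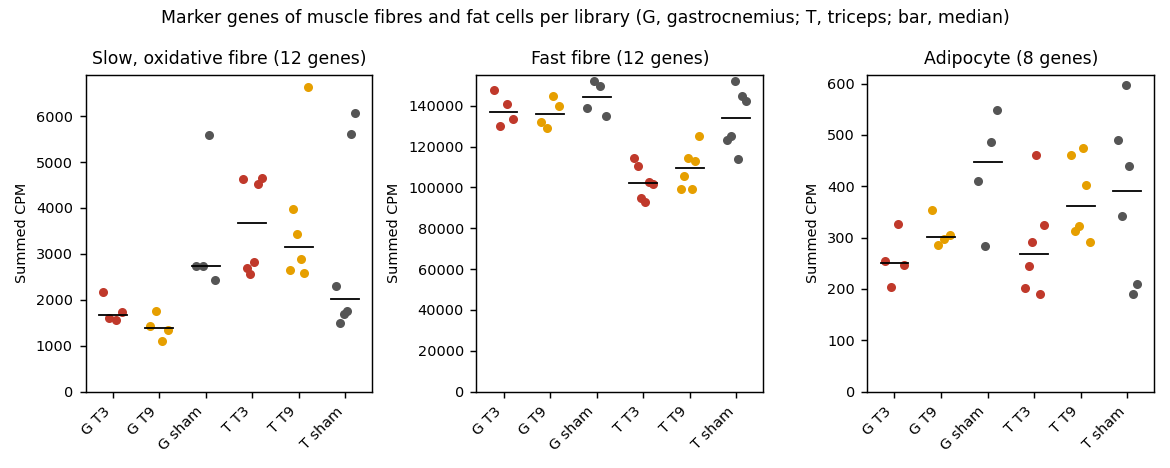
Summed CPM of 12 slow, oxidative fibre markers, 12 fast fibre markers and 8 fat cell markers per library, on linear axes from 0, with a bar at each group's median. The sum of slow, oxidative markers, which includes Myh2, is lower in gastrocnemius of T3 and T9 mice than in sham mice. In triceps it spans a wide range in each group.

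Fat cells also express Lpl, Cd36, Pnpla2 and Plin2, and endothelial cells also express Cd36. Of 10 fat cell markers 8 were in the table, and their sum ran from 204 to 326 CPM in gastrocnemius of T3 mice, from 285 to 354 CPM in T9 mice and from 284 to 548 CPM in sham mice. Fabp4, which endothelial cells also express, had 121 to 182 CPM in T3 mice, 167 to 216 CPM in T9 mice and 181 to 391 CPM in sham mice of that sum, and Adipoq, the defining fat cell hormone, stayed between 3.18 and 20.9 CPM in all 30 libraries. In gastrocnemius 1 of the 8 fell after T3 and 1 after T9, Fabp4 in each case (-0.92 ± 0.21 and -0.60 ± 0.21, adjusted p = 0.00506 and 0.0346). With median centring 3 of the 8 fell after T3 and 2 after T9, and 0 rose. In triceps the fat cell sum ran from 189 to 460 CPM in T3 mice and from 190 to 597 CPM in sham mice. There 0 of the 8 were called after T3 by limma. The 10 endothelial markers summed to 313 to 364 CPM in gastrocnemius of T3 mice, 306 to 356.5 CPM in T9 mice and 150 to 334 CPM in sham mice, and 1 of 10 rose after each lesion. In triceps they summed to 128 to 364 CPM in T3 mice and 114 to 398 CPM in sham mice, and 0 rose and 1 fell after T3. Of 8 fibroblast markers, 4 fell and 0 rose in gastrocnemius after T3 (6 fell with median centring), 2 fell and 0 rose after T9, and 3 fell and 0 rose in triceps after T3, with medians of -0.90, -0.37 and -0.80 log2 units. Of 8 macrophage markers 1, 3 and 1 rose in these comparisons and 0 fell, and with median centring 1 rose in each. The rises of endothelial and macrophage markers were at or below the shares of all genes that rose (27.1%, 37.6% and 19%). The part of these cells in the results was not tested.

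Other genes of lipid metabolism were counted from lists chosen with earlier results known. Beside these counts, 27.1% of all genes rose and 6.65% fell in gastrocnemius after T3, 37.6% rose and 5.67% fell after T9, and 19% rose and 4.32% fell in triceps after T3, and a list near those shares is not a result about the list. Among 19 PPAR partners and coregulators, 4 rose and 3 fell in gastrocnemius after T3, 7 rose and 5 fell after T9, and 8 rose and 1 fell in triceps after T3. With median centring 2 rose and 6 fell, 2 rose and 6 fell, and 5 rose and 1 fell. Of all genes, centring left 14.6% higher and 14.5% lower in gastrocnemius after T3, and 11% and 12.4% after T9. In triceps after T3 it left 10.1% higher. Ppargc1a, the coactivator PGC-1α that drives mitochondrial genes, rose in triceps after T3 by 2.27 ± 0.31 (adjusted p = 9.89e-05). Perm1, a muscle gene downstream of PGC-1α and the estrogen-related receptors, fell in gastrocnemius after T9 by 3.67 ± 0.41 (adjusted p = 5.07e-05), and Rxrg, a partner of the PPARs, fell there by 1.07 ± 0.14 (adjusted p = 0.000147). Of 4 genes of ketone use, 2 fell and 0 rose in gastrocnemius after each lesion, and 3 rose and 0 fell in triceps after T3. The ketone counts were the same with median centring. Bdh1, which oxidises β-hydroxybutyrate, fell in gastrocnemius by 4.05 ± 0.38 after T3 (adjusted p = 1.13e-05) and by 4.67 ± 0.38 after T9 (adjusted p = 6.65e-06), and rose in triceps after T3 by 2.6 ± 0.34 (adjusted p = 6.96e-05).

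Of 11 genes known to respond to fasting and PPARs, 8 rose in gastrocnemius after T3, 6 after T9 and 6 in triceps after T3, and 0 fell. With median centring 7, 5 and 4 rose and 0 fell. In triceps after T9, 0 of 11 were called. The difference between muscles was called for 0 of 11 after T3 and, as a higher effect in gastrocnemius, for 1 of 11 after T9. Fbxo32, a ubiquitin ligase of muscle atrophy, rose by 3.00 ± 0.29, by 2.29 ± 0.29 and by 2.47 ± 0.39 in these comparisons (adjusted p = 1.57e-05, 0.000133 and 0.000303). Among 17 other genes of lipid droplets and triglyceride, 3 rose and 3 fell in gastrocnemius after T3, 1 rose and 6 fell after T9, and 5 rose and 1 fell in triceps after T3. Median centring gave 2 rises and 8 falls, 1 rise and 6 falls, and 3 rises and 1 fall. Plin5, a droplet protein of oxidative muscle, fell in gastrocnemius after T9 by 1.64 ± 0.24 (adjusted p = 0.000361) and rose in triceps after T3 by 1.28 ± 0.24 (adjusted p = 0.00140).

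Of 17 other mitochondrial oxidation genes, 5 rose and 2 fell in gastrocnemius after T3, 6 rose and 3 fell after T9, and 7 rose and 0 fell in triceps after T3. With median centring the gastrocnemius balance turned, as 1 of these genes rose and 3 fell after T3 and 0 rose and 5 fell after T9. In triceps after T3, 5 of these genes still rose and 0 fell. Acss1, a mitochondrial acetyl-CoA synthetase, had the largest change of them in triceps (2.01 ± 0.24, adjusted p = 2.64e-05). In the same 3 comparisons, among 16 other uptake and transport genes 4 rose and 2 fell, 3 rose and 1 fell, and 6 rose and 1 fell. Centred, 2 rose and 5 fell, 1 rose and 3 fell, and 5 rose and 2 fell. Among 13 genes of malonyl-CoA and AMPK control 2 rose and 0 fell, 5 rose and 0 fell, and 3 rose and 2 fell, with Acacb, the mitochondrial acetyl-CoA carboxylase, higher in each (1.46 ± 0.32, 0.93 ± 0.32 and 1.43 ± 0.41, adjusted p = 0.00433, 0.0333 and 0.0186). After median centring, 1 of the 13 rose and 3 fell, 1 rose and 1 fell, and 3 rose and 4 fell. In triceps after T9, limma called 0 genes of these lists.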

How the data were processed

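Messenger RNA of gastrocnemius (4 libraries per group) and triceps (6 per group) was sequenced with a stranded kit. Per the submitters' processing notes, reads were aligned with HISAT2 2.1.0 to GRCm38 and counted with featureCounts of Subread 1.5.1, and limma was used. The authors deposited 1 table of log2 CPM (as made by limma's voom, per the table's name) for 11249 genes and 30 libraries. With an offset of 0.5 reads, 100% of its values gave whole reads within 0.01, so depth per library is known. Of the gene IDs 11240 matched a symbol and 9 did not.

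The log2 values as deposited were tested with limma 3.58.1 (limma-trend, R 4.3.3), since the table holds no raw counts, and p-values were adjusted by Benjamini-Hochberg over all genes tested. Genes needed a log2 value of at least 0 in 4 libraries of a fit, which all 33 members reached. The fits used the 12 gastrocnemius libraries, the 18 triceps libraries with the label number 57 or 60 as a term, and, between muscles, the 24 libraries of 12 mice with the mouse as a block. Mouse numbers were read from the sample descriptions, and the labels do not state that they are animals. The 2 libraries of a mouse deviated together (r over 0.1) in 10 of 12 mice. The replicate numbers of the titles did not pair libraries across surgeries, and are not a block in the main fits.

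Members and gene lists were chosen with earlier results of these data known. All members could be named, and of each other list at most 3 genes with the smallest adjusted p in a comparison; 1 gene and its list are not reported here. Exon lengths and overlaps come from GENCODE vM21 and promoter windows from RefSeq, where 27 of 33 members matched. Alternatives changed scaling, filter, pseudocount, weights, blocks, covariates and the libraries used. Of the 63 pairs of libraries of 1 group, none agreed within sampling noise (lowest chi-square per degree of freedom 9.78). Figures were drawn with matplotlib 3.10.9.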

Additional observations from a re-analysis of the deposited data

Results flagged for a closer look

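The effect of injury differed between gastrocnemius and triceps, by limma's test of the difference itself, for 5 members after T3 and 10 after T9. After T3 the differences in log2 units were -2.41 for Ppara, -2.106 for Fabp3, -1.863 for Lpl, -1.09 for Acaa2 and -0.931 for Etfdh. After T9 they were -2.941 for Fabp3, -2.533 for Ppara, -1.955 for Cpt1b, -1.778 for Lpl and -1.629 for Acaa2. The other T9 differences were -1.185 for Slc27a1, -1.097 for Acadvl, -1.093 for Hadh, -1.078 for Acadm and -0.792 for Etfdh. Their standard errors and adjusted p-values stand with the results above.

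In 10 of 198 groups (5.05%) 1 library lay far from the others of its group by Dixon's criterion, where chance gives about 1 in 20. In gastrocnemius these were, in log2 CPM, Slc27a1 at 7.495 and Etfa at 8.369 in T3 replicate 2, Acsl1 at 7.395 and Acaa2 at 6.27 in T9 replicate 1, Lpl at 8.808 and Eci2 at 5.368 in sham replicate 2, and Acadvl at 6.414 in sham replicate 4. In triceps they were Etfa at 8.345 in T3 replicate 1, Ppard at 4.415 in T3 replicate 4 and Hadh at 6.654 in sham replicate 4.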

How the results depend on the processing

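The number of members called moved by over 1.5 times as follows, and the cause was not tested. Gastrocnemius T3 against sham had 14 calls, with 9 under median centring, 6 with the library median as a covariate and 9 with only the 2 groups compared. T9 against sham had 9, with 14 under library weights, 16 under median centring and 5 with the median covariate. T3 against T9 had 4, with 17 under library weights, 8 with the median covariate, 14 with only the 2 groups, 2 with the replicate block and 8 without the 4 libraries of lowest median. Triceps T3 against sham had 23, with 15 under median centring, and T9 against sham 0, with 4 under library weights. Triceps T3 against T9 had 11, with 0 at label number 60 only, 19 under library weights and 6 without the label term. The difference between muscles after T3 had 5, with 3 under median centring, 17 with the median covariate, 3 without the mouse block and 2 without the 4 libraries of lowest median. After T9 it had 10, with 6 in all 30 libraries, 16 under library weights, 19 with the median covariate and 6 without the mouse block. Gastrocnemius against triceps in sham mice had 16, with 10 under library weights and 0 in all 30 libraries, with the median covariate, without the mouse block, without the 4 libraries of lowest median and without the mouse of sham replicate 3.

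With each library left out in turn, the counts ranged from 10 to 17 (gastrocnemius T3 against sham), 8 to 14 (T9 against sham), 0 to 8 (T3 against T9), 20 to 24 (triceps T3 against sham), 0 to 0 (T9 against sham) and 9 to 13 (T3 against T9). They ranged from 2 to 6 and 7 to 12 for the difference between muscles after T3 and T9, and from 8 to 23, 18 to 26 and 0 to 16 for the levels in T3, T9 and sham mice. Of the called single values, 1 changed sign, Acot13 in gastrocnemius T9 against sham, at 0.138 with the median covariate.

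The replicate block, from the numbers in the titles, kept 190 of 198 single values on their side of the threshold, with 6 calls lost and 2 gained. Same-numbered libraries had r over 0.1 in 3 of 12 gastrocnemius and 10 of 18 triceps pairs. Voom weights on the recovered reads kept 362 of 363. With 4 gastrocnemius libraries per group and 4 to 6 triceps libraries, a change that missed the threshold is not shown to be absent.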
